A study of Mus musculus with 8 samples.

Results

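The Bcl2 family of apoptosis regulators was followed in the livers and tumors of Fah-/- mice through 10 genes, Bcl2, Bcl2l1, Mcl1, Bax, Bak1, Bid, Bcl2l11, Bad, Bbc3 and Pmaip1. They were chosen by symbol, as the rule for the family, and all 10 were found once each among the 22504 Ensembl mouse gene identifiers listed. Fah-/- mice, here on the 129S4 strain, cannot complete the breakdown of tyrosine and build up toxic intermediates unless NTBC, an inhibitor of a step further upstream, is given, normally at 7.5 mg/L in the drinking water. In moderate chronic liver injury (MCLI) NTBC was cut to 2.5% of that dose, and in severe acute liver injury (SALI) it was withdrawn. The 3 C 8w mice had 8 weeks of MCLI, the 2 C 12w mice had 12 weeks of MCLI, and in the 3 C 8w + A 4w mice, the SALI group from here on, 4 weeks of SALI came after 8 of MCLI. All 8 mice were Fah-/- and had been under MCLI, and no uninjured or wild-type mouse was analysed here. By label the tissue was tumor in C 12w and liver otherwise, so tissue and time on MCLI cannot be told apart in comparisons with C 12w. The labels give neither sex nor age.

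Members of the Bcl2 family decide at the outer mitochondrial membrane whether a cell starts apoptosis. Guardians such as BCL2, BCL-XL (from Bcl2l1) and MCL1 hold the pore formers BAX and BAK in check, and freed pore formers perforate the membrane so that cytochrome c leaves it and caspases are switched on. BH3-only proteins such as BID, BIM (from Bcl2l11), BAD, PUMA (from Bbc3) and NOXA (from Pmaip1) bind guardians, and some also bind pore formers directly. Hepatocytes are known to depend on BCL-XL and MCL1 and to pass death receptor signals through BID. The family is regulated at the protein level as well, so transcript levels describe only one layer of it.

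Values are FPKM (fragments mapped to a gene, divided by its length and by the sample's total), which hold no read counts, so the depth behind each value is unknown and only the spread between mice could serve as error. Groups were compared by limma on log2(FPKM + 1) in one fit of all 8 samples, over the 10244 genes that reached 1 FPKM in 4 samples or more. Adjusted p-values are Benjamini-Hochberg values over those genes, and a gene is said to have risen or fallen where its adjusted p was under 0.05. All 10 hepatocyte markers were above 1 FPKM in every sample, although the extraction label speaks of retina, for which 2 of 10 markers reached 1 FPKM in every sample and Rcvrn and Crx were listed at 0 in all 8. The sample codes form 2 series, of which the second holds exactly the SALI group, so code series and group cannot be told apart. Whether both series were quantified in the same way is not given in the sources used here, and if they were not, every difference of the SALI group from the others would include it. Gapdh, a gene that every cell uses, was between 0.0980 and 0.247 FPKM in the first series and between 68.2 and 99.9 in the second. Alb, the albumin gene, was listed at 0 in the first and between 12950 and 16950 in the second. Fah itself was read at 15.6 to 16.8 FPKM in C 8w, at 13.5 to 14.4 in C 12w and at 5.01 to 6.36 in the SALI group. With no wild-type sample, and since a disrupted gene can still be transcribed, these values check no label. As a measure of how far reads could have been split with a copy, shared sequence was computed, that is, how many percent of a gene's stretches of 50 bases recur in some other gene of the annotation. It was 0% for Bcl2l1, Mcl1, Bbc3 and Pmaip1 and 0.135% for Bcl2l11. It was 5.25% for Bcl2, 8.51% for Bax, 16.4% for Bid, 17.1% for Bak1 and 17.2% for Bad. It was also 0% for Alb, so that a low percentage does not show that a gene was counted alike in both series.

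Bcl2l11, a BH3-only gene that rose after SALI, and Bbc3, one that fell, are both known targets of forkhead (FOXO) factors. Their promoter windows with a forkhead match, each 300 bases long and reaching from upstream to just downstream of a transcript start, are shown for that reason. The sequences are those of RefSeq on GRCm38.p6, read 5′ to 3′ on the gene's strand, and the capitals mark the match to TGTTTAC, which in the Bcl2l11 window is on the opposite strand. The Bcl2l11 window is chr2:128125788-128126087 and the Bbc3 window is chr7:16310011-16310310, both on the plus strand.
Bcl2l11: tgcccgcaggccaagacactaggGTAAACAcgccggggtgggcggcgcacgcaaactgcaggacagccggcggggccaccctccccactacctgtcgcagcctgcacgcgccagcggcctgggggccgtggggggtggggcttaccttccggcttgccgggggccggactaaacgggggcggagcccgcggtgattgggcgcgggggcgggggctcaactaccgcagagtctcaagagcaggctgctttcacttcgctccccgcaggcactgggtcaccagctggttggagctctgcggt
Bbc3: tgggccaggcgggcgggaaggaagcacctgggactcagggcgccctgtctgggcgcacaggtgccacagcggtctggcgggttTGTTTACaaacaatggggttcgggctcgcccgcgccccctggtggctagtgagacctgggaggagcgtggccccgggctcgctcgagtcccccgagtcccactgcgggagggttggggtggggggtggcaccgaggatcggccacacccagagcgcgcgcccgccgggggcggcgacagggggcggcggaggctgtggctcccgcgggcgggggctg
The match spans bases 24 to 30 of the Bcl2l11 window and bases 84 to 90 of the Bbc3 window. TGTTTAC was found, on either strand, in 3.65% of the 32851 mouse promoter windows of this length, and in no other window of the members searched. Pmaip1 was not searched. GGGCGG, the GC box, was found in 35.7% of all windows and more than once in both windows shown. The p53 half-site was found in 8.36% of all windows and, among the members searched, once in a Bax window. TGANTCA (AP-1, 7.81% of all windows) and TGACGTCA (CRE, 1.79%) were found in none of the members' windows, and CACGTG (E-box, 7.15%) in a Bax window and in a further Bbc3 window. All motifs were searched on both strands, and neither forkhead match overlapped a match of another motif. A match is a run of letters and not a measured binding site, and the absence of one says nothing about a factor.

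The order of the members was led by Mcl1 and Bax in every group. In bulk tissue a difference in the share of cells of one type and a difference in RNA per cell cannot be told apart, for any of the members. In C 8w, Bax (42.2 ± 5.96, mean ± SD, n = 3) and Mcl1 (39.2 ± 3.28) had the highest FPKM and did not differ beyond their spread. Bcl2l1 (10.9 ± 1.52) and Bbc3 (9.01 ± 2.42) followed, and their ranges overlapped. Bak1, Bad, Bcl2l11 and Bid came next at 5.47, 3.72, 3.21 and 2.56, with Bad and Bcl2l11 overlapping. Pmaip1 at 0.381 and Bcl2 at 0.183 stood below 1 FPKM. In C 12w the order began with Mcl1 (63.5 ± 21.1, n = 2), Bax (34.5 ± 0.746) and Bcl2l1 (10.2 ± 0.757), and the ranges of Bbc3 and Bak1, at means of 7.26 and 7.11, overlapped. In the SALI group, Bcl2l11 moved from the seventh to the fourth place at 9.96 ± 0.534 FPKM, and Bbc3 from the fourth to the seventh at 3.58 ± 1.23. Among the 10244 genes, 31.4% had a lower mean than Bcl2l11 in C 8w and 60.9% in the SALI group, while for Bbc3 the percentages were 61.3% and 30.1%.

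**Figure D1:**
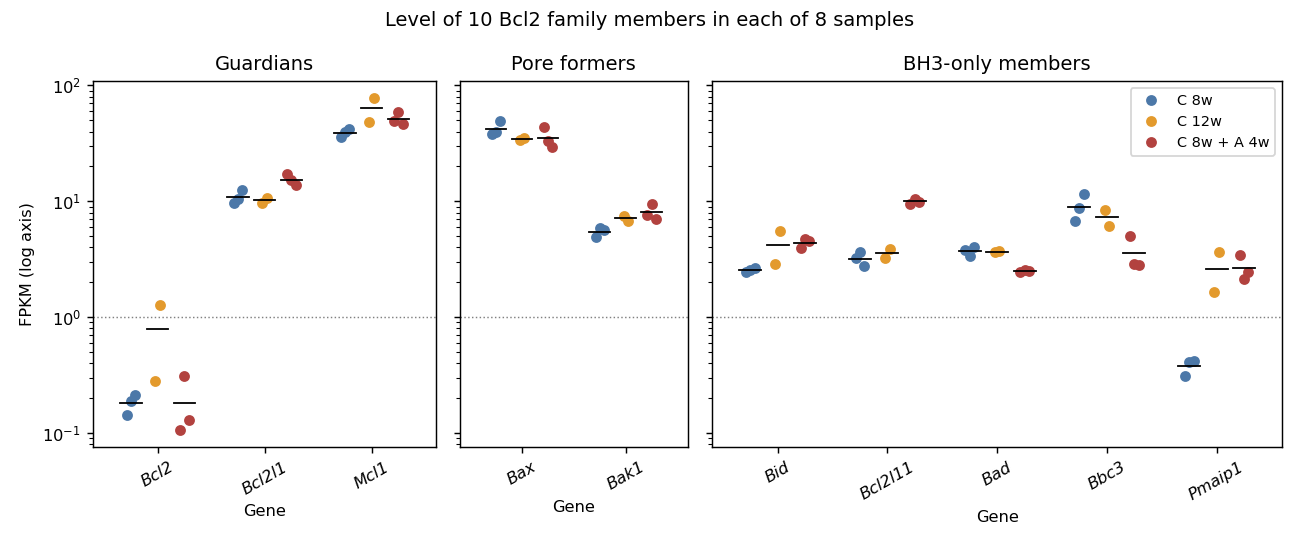
FPKM (log axis) of each of the 10 members in each sample, in panels by role, with C 8w (n = 3) in blue, C 12w (n = 2) in orange and C 8w + A 4w (the SALI group, n = 3) in red. Points are samples, black bars are group means and the dotted line is 1 FPKM. Bcl2l11 lay between 9.44 and 10.5 in the SALI group against 2.74 to 3.89 in the 5 other samples, and Pmaip1 was below 1 only in C 8w.

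SALI after MCLI was compared with its starting point, C 8w. Bcl2l11, Pmaip1, Bid, Bak1 and Bcl2l1 rose and Bbc3 and Bad fell, while Mcl1 and Bax did not pass the test and Bcl2 was too low to be tested. Of the 9 members tested, 5 were called higher, where 25.3% of all genes tested were, and 2 were called lower, where 14.1% of all genes were. Every one of the 5 BH3-only genes was called, 3 higher and 2 lower. The median log2 fold change was 0.46 over the 9 members and 0.12 over all genes. Pmaip1 met the floor of 1 FPKM only through C 12w and the SALI group, so that a difference from C 8w was built into its being tested, and these counts are a description. Under median-ratio scaling the median over all genes moved from 0.122 to 0.005, and the calls over all genes went from 2591 higher and 1443 lower to 2013 higher and 2064 lower. Among members 4 were then higher and 2 lower, and Bcl2l1 was no longer called.

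Among the guardians, Bcl2l1 is the gene of BCL-XL, the main guardian of the adult hepatocyte together with MCL1. Bcl2l1 was 9.67, 10.4 and 12.6 FPKM in C 8w and 17.1, 15.2 and 13.8 in the SALI group. Every sample after SALI lay above every C 8w sample, and the lowest of the first exceeded the highest of the second by little. Bcl2l1 was 1.41-fold higher, a log2 fold change of 0.46 ± 0.13 (SE, adjusted p = 0.0222). The call did not hold under median-ratio scaling (0.33, adjusted p = 0.0511) or quantile scaling (0.30, adjusted p = 0.0618), nor without C 8w replicate 1 or 2 or SALI replicate 1 (adjusted p between 0.0712 and 0.0942).

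Mcl1, the gene of a guardian that turns over within hours, was 35.8, 39.4 and 42.3 FPKM in C 8w and 49.6, 58.6 and 46.5 in the SALI group. The groups did not overlap, yet the log2 fold change of 0.38 had a 95% interval from -0.03 to 0.80 (adjusted p = 0.127). With only the 2 groups compared in the fit, the same difference had an adjusted p of 0.0298. Mcl1 was called in 3 of 16 alternatives, that fit and 2 in which a sample was left out. Bcl2, the founding member, was between 0.144 and 0.214 FPKM in C 8w and between 0.106 and 0.311 in the SALI group. These ranges overlapped, and the depth behind such low values is unknown.

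The pore formers differed from each other. Bak1, whose product sits in the outer membrane at rest, was 4.87, 5.88 and 5.66 FPKM in C 8w and 7.61, 9.54 and 7.001 in the SALI group. The groups did not overlap, and the log2 fold change was 0.48 ± 0.13 (adjusted p = 0.0205). Bax, whose product waits in the cytosol, was 38.3, 39.3 and 49.1 FPKM in C 8w and 43.5, 33.4 and 29.4 in the SALI group. Its groups overlapped, and the log2 fold change of -0.26 had an interval from -0.63 to 0.12 (adjusted p = 0.24). The Bak1 call was lost under quantile scaling (0.32, adjusted p = 0.0575) and without C 8w replicate 1 or 3 or SALI replicate 2 (adjusted p between 0.052 and 0.0883). Ggnbp1, an annotated neighbour that lies over Bak1 and shares its windows, was between 1.45 and 1.64 FPKM in C 8w and between 0.555 and 1.13 in the SALI group. Its part in the Bak1 value was not tested.

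Bcl2l11 showed the smallest adjusted p of the members in this comparison. BIM, its product, is a BH3-only protein that binds every guardian and activates the pore formers directly. Bcl2l11 was 3.22, 3.66 and 2.74 FPKM in C 8w and 9.44, 10.5 and 9.93 in the SALI group. The 3 samples after SALI lay close together and far above the 3 before it. The fold of the means was 3.10, and the log2 fold change was 1.39 ± 0.12 with a 95% interval from 1.11 to 1.66 (adjusted p = 6.22e-05). A larger log2 fold change was measured for 390 of the 10244 genes. The call held under all 16 alternatives counted, with log2 fold changes between 1.21 and 1.61. Among them was a fit that was limited to genes with at most 2% shared sequence and scaled by median ratios as well (1.29).

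Pmaip1 (NOXA, a BH3-only protein that binds MCL1) was 0.308, 0.414 and 0.420 FPKM in C 8w and 3.42, 2.14 and 2.45 in the SALI group. Its means differed 7.01-fold, and the log2 fold change, which the added 1 FPKM compresses at so low a level, was 1.40 ± 0.21 (adjusted p = 0.00143). With 0.1 FPKM added in place of 1 it was 2.51.

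Bid, the BH3-only gene that links death receptors to mitochondria, was 2.45, 2.57 and 2.68 FPKM in C 8w and 3.94, 4.76 and 4.51 in the SALI group. The groups stood apart, and the log2 fold change was 0.60 ± 0.18 (adjusted p = 0.0297). Leaving out any one of 5 samples, the 3 of C 8w and replicates 2 and 3 of the SALI group, raised the adjusted p to between 0.0698 and 0.0968, while the log2 fold change stayed between 0.55 and 0.62. The call was also lost with no floor on FPKM (0.60, adjusted p = 0.0663), and held under median-ratio (0.49) and quantile scaling (0.44). Its shared windows lie in Bcl2l13, a neighbour annotated over part of Bid, which was between 10.03 and 11.4 FPKM in C 8w and between 14.8 and 18.7 in the SALI group. Bcl2l13 thus rose as well (log2 fold change 0.54, adjusted p = 0.00864), while in C 12w it was 8.23 and 9.17 FPKM, below C 8w. Its part in the Bid value was not tested.

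Bbc3 and Bad fell. Bbc3, the gene of PUMA, is a p53 target whose product binds all guardians. It was 6.74, 8.75 and 11.6 FPKM in C 8w and 5.001, 2.90 and 2.82 in the SALI group. The highest sample after SALI was below the lowest before it, and the log2 fold change was -1.13 ± 0.23 (adjusted p = 0.00599). It stayed called under all 16 alternatives, between -1.35 and -0.96. Bad, the gene of a BH3-only protein that survival kinases keep phosphorylated and inactive, was 3.76, 3.35 and 4.06 FPKM in C 8w and 2.46, 2.57 and 2.49 in the SALI group. The groups did not overlap, and its log2 fold change was -0.43 ± 0.10 (adjusted p = 0.0101). It was called under all 15 alternatives counted. These leave out a minimum log2 fold change of 1, under which a change of this size is not called. Gpr137, annotated over part of Bad, holds its shared windows. It was between 5.51 and 5.75 FPKM in C 8w and between 3.44 and 3.53 in the SALI group, so it was lower together with Bad. In C 12w, however, Gpr137 was 3.49 and 4.37 FPKM while Bad lay within its C 8w range. The part of Gpr137 in the Bad value was not tested.

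**Figure D2:**
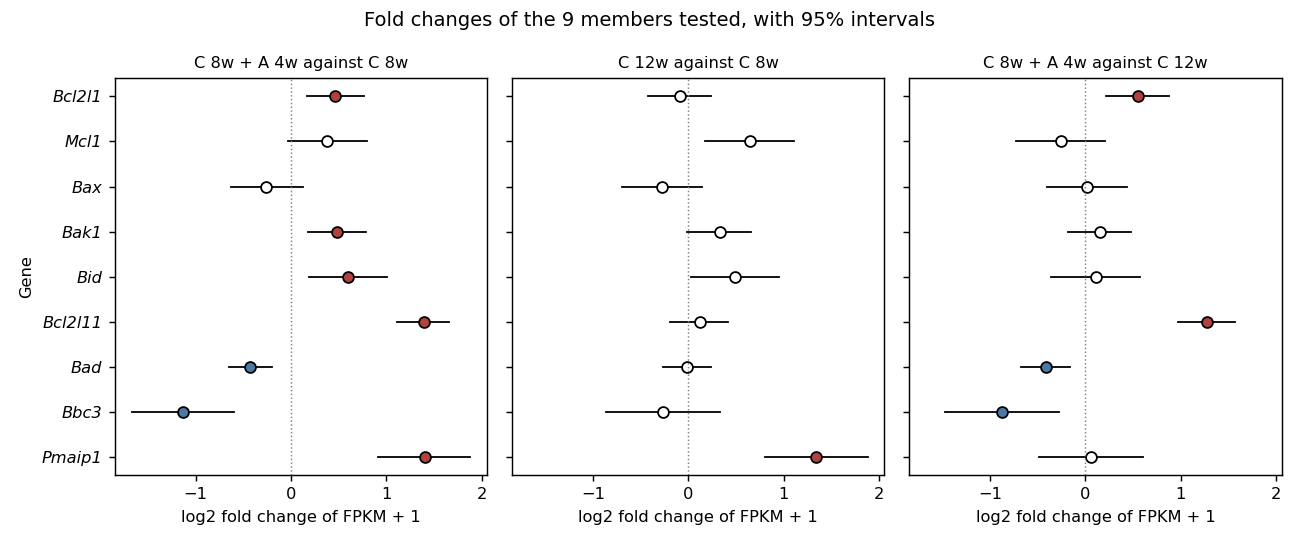
Log2 fold change of FPKM + 1 (horizontal axis) of the 9 members tested, in 3 panels for the 3 comparisons, with bars for the 95% intervals from limma. Red points were called higher, blue points lower, and white points did not pass an adjusted p of 0.05. Bcl2l11 is at 1.39 and 1.27 in the comparisons with the SALI group and at 0.12 in C 12w against C 8w, while Pmaip1 is at 1.40 and 1.34 against C 8w and at 0.06 between the SALI group and C 12w.

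Continued MCLI, which by the label ended in tumor tissue, was compared with C 8w next. Pmaip1 was the only one of the 9 members tested that was called, and it was higher. Over all genes tested, 12.2% were called higher and 6.98% lower in this comparison. Pmaip1 was 1.64 and 3.62 FPKM in C 12w, both above the 3 C 8w samples, which lay under 0.5. The means differed 6.90-fold and the log2 fold change was 1.34 ± 0.24 (adjusted p = 0.00923). Without C 12w replicate 3 it was 0.94 (adjusted p = 0.0167) and without replicate 2 it was 1.74 (adjusted p = 0.000693), where the lone remaining C 12w sample is assumed to vary like the other groups. The call held in 16 of 18 alternatives and was lost in the other two, which limit the fit to 4 samples. As said above, this gene met the floor through the groups in which it was high.

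Several members were uneven between the 2 C 12w samples, and replicate 3 was the higher of the pair for most. Mcl1 was 48.6 FPKM in replicate 2 and 78.4 in replicate 3, both above C 8w, with a log2 fold change of 0.65 (interval 0.18 to 1.11, adjusted p = 0.0584). Bid was 2.86 and 5.51 FPKM, with a log2 fold change of 0.49 (adjusted p = 0.114). Without replicate 2 the Mcl1 and Bid differences were called (0.99 and 0.87), and without replicate 3 they were 0.31 and 0.11 and not called. Bcl2 was 0.283 FPKM in replicate 2 and 1.28 in replicate 3, its only value of at least 1 in the series. Replicate 3 also stood apart in its cholangiocyte markers, which summed to 339 FPKM there, with Spp1 at 311, against 28.2 in replicate 2 and 9.51 to 15.2 in C 8w. Their part in these member values was not tested.

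The other members gave no call between C 12w and C 8w. Bcl2l11 was 3.21 and 3.89 FPKM in C 12w, within or just above the C 8w range, with a log2 fold change of 0.12 and an interval from -0.19 to 0.42 (adjusted p = 0.554). Bbc3 was 8.40 and 6.13 (log2 fold change -0.26, interval -0.86 to 0.33), and Bad was 3.65 and 3.69 (-0.01, interval -0.27 to 0.24). Bcl2l1, at 9.64 and 10.7 FPKM, had a log2 fold change of -0.09 (interval -0.42 to 0.24). The pore formers did not overlap with C 8w, in opposite directions, but neither passed the test. Bak1 was 7.47 and 6.74 FPKM (0.33, adjusted p = 0.14) and Bax was 34.0 and 35.0 (-0.28, adjusted p = 0.298).

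The SALI group and C 12w were both collected 12 weeks after MCLI began, and the study set them against each other as mice with and without a final spell of SALI. Bcl2l11 and Bcl2l1 were higher in the SALI group and Bbc3 and Bad were lower, while Mcl1, Bax, Bak1, Bid and Pmaip1 did not pass the test. Among the members 2 were called higher, with 17.4% of all genes, and 2 lower, with 15.4% of all genes. This comparison and the first share the SALI samples, so their agreement in Bcl2l11, Bcl2l1, Bbc3 and Bad is not independent. Bcl2l11 was 2.80-fold higher, with a log2 fold change of 1.27 ± 0.13 (interval 0.97 to 1.57, adjusted p = 0.000261), and no sample overlapped. It stayed called under all 16 alternatives, between 1.16 and 1.47. Bcl2l1 had a log2 fold change of 0.55 (adjusted p = 0.0204), Bad of -0.41 (adjusted p = 0.0218) and Bbc3 of -0.87 (adjusted p = 0.0334). The groups did not overlap for any of these, but with only these 2 groups in the fit the adjusted p was 0.0534, 0.0836 and 0.0574. The Bcl2l1 call was also lost without C 12w replicate 2 or SALI replicate 1 (adjusted p = 0.0622 and 0.0565), and the Bad call without SALI replicate 1 or 3 (adjusted p = 0.0507 and 0.0605). The Bbc3 call was lost in 6 of 16 alternatives, among them no floor (adjusted p = 0.07) and leaving out C 8w replicate 2, C 12w replicate 2 or SALI replicate 2 or 3 (adjusted p between 0.0564 and 0.121), with log2 fold changes between -0.87 and -0.67.

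Pmaip1 was not called between the SALI group and C 12w, with a log2 fold change of 0.06 whose interval, from -0.49 to 0.60, still allows a moderate difference either way. Mcl1 had -0.26 (interval -0.73 to 0.21) and Bid 0.11 (interval -0.36 to 0.57). Both turned on the C 12w samples. Without replicate 2 Mcl1 was -0.60 and called, and without replicate 3 it was 0.08, while Bid was -0.27 and 0.48, the second of these called. Bak1 was 0.15 (interval -0.18 to 0.48) and Bax 0.02 (interval -0.40 to 0.44).

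Ratios between members of one sample do not depend on any factor by which all values of that sample are scaled, although quantile scaling would change them. They were chosen after values were seen and are given as a description. Bcl2l11 over Bbc3 was 0.478, 0.418 and 0.237 in C 8w, then 0.383 and 0.634 in C 12w and 1.89, 3.62 and 3.52 in the SALI group. Bbc3 thus exceeded Bcl2l11 in the 5 samples under MCLI alone, and Bcl2l11 exceeded Bbc3 in the 3 after SALI. Among the summed FPKM of the 5 BH3-only genes, Bcl2l11 made up 12.8% to 19.6% in C 8w, then 16.3% and 17.0% in C 12w and 38.9% to 45.9% in the SALI group. Bbc3 made up 40.9% to 53.9%, then 42.5% and 26.9%, then 12.7% to 20.6%. The sum itself moved less, from 16.5 to 21.4 FPKM in C 8w, to 19.8 and 22.8 in C 12w and to 22.2 to 24.3 in the SALI group.

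Pore formers over guardians, as summed FPKM, were 0.902 to 0.992 in C 8w, then 0.708 and 0.462 in C 12w and 0.579 to 0.764 in the SALI group. Both later groups lay below C 8w and overlapped each other. Bax over Bcl2l1 was 3.96, 3.76 and 3.89 in C 8w, then 3.52 and 3.27 in C 12w and 2.54, 2.19 and 2.13 in the SALI group, with no overlap between any groups for this pair. Bax over Bak1 was 6.67 to 8.68 in C 8w, then 4.55 and 5.19 in C 12w and 3.50 to 5.71 in the SALI group. Mcl1 over Bcl2l1 was 3.36 to 3.77 in C 8w, then 5.04 and 7.32 in C 12w and 2.90 to 3.85 in the SALI group, so that it stood higher in the tumor samples than in either liver group.

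**Figure D3:**
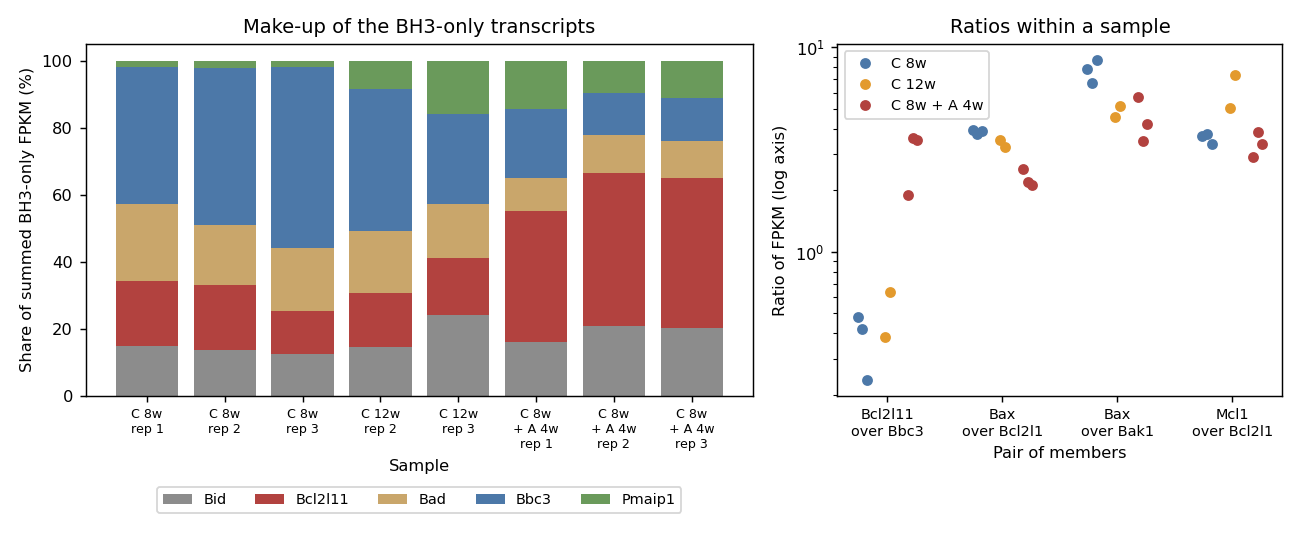
The left panel stacks the share of summed BH3-only FPKM (%) taken by each of 5 genes in each sample, and the right panel plots 4 ratios of FPKM within a sample on a log axis, coloured by group. Bcl2l11 takes 38.9% to 45.9% in the SALI samples against 12.8% to 19.6% in the others, and its ratio to Bbc3 is above 1 only there.

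Across all groups, Bcl2l11 (adjusted p = 0.000107) and Pmaip1 (adjusted p = 0.00207) had the smallest p of the members in limma's moderated F test, where the floor's limit on Pmaip1 given above holds too. The 3 genes nearest to each in Euclidean distance of centred log2 values over the 8 samples, among 10243 others, were then listed. For Bcl2l11 these were D16Ertd472e at a distance of 0.209, Rbm10 at 0.294 and Clca3a1 at 0.359, where the length of Bcl2l11's own pattern was 1.86. D16Ertd472e was 5.49 to 6.98 FPKM in C 8w, then 5.55 and 7.48 in C 12w and 15.5 to 19.1 in the SALI group. For Pmaip1 they were Chml at 0.449, Rnd3 at 0.484 and Wwtr1 at 0.485, with an own length of 2. Wwtr1, the gene of the transcriptional coactivator TAZ, was 3.11 to 4.23 FPKM in C 8w, then 6.20 and 10.7 in C 12w and 7.99 to 11.3 in the SALI group.

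The family acts among further genes, of which 76 were listed and 64 passed the floor. In the SALI group against C 8w, 23 were called higher and 7 lower, and the median log2 fold change was 0.29, against 0.12 over all genes. In C 12w against C 8w, 11 were higher and 9 lower with a median of 0.14. In the SALI group against C 12w, 19 were higher and 9 lower with a median of 0.06. The shares of all genes called in each direction are those given above for each comparison. When each of the 8 samples was left out in turn, 12 of the 30 genes called in the SALI group against C 8w lost the call at least once, among them Bok, Bcl2a1b, Bcl2l12, Aifm1, Fas, Tradd, Ripk1, Trp53, Foxo1, Dynll2 and Ccng1. In C 12w against C 8w 18 of 20 did, all but Slc25a4 and Jun, and in the SALI group against C 12w 12 of 28 did, among them E2f1, Dynll2 and Mdm2.

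The remaining guardians and pore formers were 6 genes, of which 3 passed the floor. After SALI, 2 rose over C 8w, Bok (0.53, adjusted p = 0.0353), a pore former that guardians do not hold, and Bcl2a1b (0.46), which shares 79.2% of its windows with its near-identical copies and is uncertain. Bcl2a1b also rose in C 12w (0.67). It was between 0.767 and 0.796 FPKM in C 8w and at least 1.09 in the 5 other samples, so that, as for Pmaip1, it met the floor only through the groups in which it was high and a difference from C 8w was built into its being tested. Among 9 further BH3-only and Bcl2-like genes, 5 were tested, and 3 rose and 1 fell after SALI. Bik, a BH3-only gene that was not tested, was 1.97, 2.70 and 1.75 FPKM in C 8w, then 0.216 and 0.412 in C 12w and 0.352 to 0.618 in the SALI group. It was thus lower in both later groups without overlap, but a floor to be met in 4 samples leaves out a gene that is high only in the 3 C 8w samples. Bnip3, which drives removal of mitochondria, was 75.8 to 78.3 FPKM in C 8w, then 42.5 and 37.9 in C 12w and 113 to 179 in the SALI group. It fell in C 12w against C 8w (-0.93, adjusted p = 0.0157) and rose after SALI (0.93, adjusted p = 0.00372), with 47.2% of its windows shared. Bcl2l12, with 24.6% of its windows shared, fell after SALI against both C 8w (-0.41) and C 12w (-0.71).

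Downstream of the pore, 12 apoptosome and caspase genes were tested, of which 1 rose and 2 fell after SALI against C 8w. Endog, which codes for a mitochondrial nuclease and shares 32.8% of its windows, fell in C 12w (-0.96). It was -0.61 and not called without C 12w replicate 3, and -1.30 without replicate 2. Aifm1, which acts without caspases, fell after SALI (-0.43). Cycs, the gene of cytochrome c, was 3.53 to 4.45 FPKM in C 8w, then 1.84 and 2.45 in C 12w and 76.0 to 79.6 in the SALI group, a 20.1-fold difference from C 8w. However, Cycs shares 26.1% of its windows with copies, and Gm10053, which holds 25.3%, went the other way, from 90.2 to 114 FPKM in C 8w to 25.8 to 27.8 in the SALI group. The part of these copies in the Cycs value was not tested. None of the 5 caspase inhibitors tested was called by limma in any comparison, with 2 at an unadjusted p under 0.05 in each comparison with C 8w and 0 in the other.

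Upstream, 6 death receptor genes and adaptors were tested. Tnfrsf10b, the TRAIL receptor, rose after SALI (0.76, adjusted p = 0.00675) with Ripk1 (0.39), while Fas (-0.57, adjusted p = 0.0381) and Tradd (-0.34) fell. Fas also fell in C 12w (-0.80, adjusted p = 0.031). At the outer membrane, 4 of 6 partners rose after SALI and none fell, where 25.3% of all genes tested rose. Among the 4 was Slc25a5 (0.77), which shares 33.8% of its windows. Vdac2, which recruits BAK, was 21.5 to 24.9 FPKM in C 8w, and 22.9 and 25.7 in C 12w. In the SALI group Vdac2 was 56.4 to 66.7, a log2 fold change of 1.37 from C 8w. It shares 4.06% of its windows with the processed pseudogene Gm7832. Vdac3 rose by 1.97, but its pseudogene Vdac3-ps1, which holds 11.8% of its windows, went from 33.5 to 35.3 FPKM in C 8w to 14.6 to 18.9. Slc25a4, an adenine nucleotide carrier with no shared window, rose in both later groups, by 1.34 after SALI and by 1.76 in C 12w.

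Of 11 transcription factors tested that are known to act on family genes, 3 rose and 1 fell after SALI against C 8w. Jun (0.88), Myc (0.89) and Trp53 (0.34, adjusted p = 0.0271) rose, and Foxo1 fell (-0.42, adjusted p = 0.021). Foxo3, another forkhead factor, had -0.24 (adjusted p = 0.202) after SALI and fell in C 12w (-0.60, adjusted p = 0.0317), as did Foxo1 (-0.47). Jun (1.27) and Myc (0.90) rose in C 12w too. E2f1 was lower after SALI, at 1.14 to 2.22 FPKM, than in C 12w, at 2.82 and 7.66 (-1.15, adjusted p = 0.0239). Without C 12w replicate 3 this became -0.56 and was not called, and without replicate 2 it became -1.74. The call was also lost without SALI replicate 1 or 3. Ddit3 (CHOP), which reports stress in the endoplasmic reticulum and acts on Bcl2l11, was 9.19 to 11.4 FPKM in C 8w, and 102, 13.8 and 16.5 in the SALI group. Its change was not called (adjusted p = 0.144), and its part in the Bcl2l11 value was not tested. Among regulators of turnover or binding, Ywhaz (1.39), a 14-3-3 protein that holds phosphorylated BAD, Usp9x (0.97), which removes ubiquitin from MCL1, and Dynll1 (0.89), which tethers BIM, led 5 that rose after SALI. Dynll2, the paralogue of Dynll1, was the 1 that fell (-0.52, adjusted p = 0.0262), and it was lower than in C 12w too (-0.63). Ywhaz shares 15.2% of its windows with copies, mostly with the processed pseudogene Gm4202, whose part in the Ywhaz value was not tested. In C 12w, Huwe1 (0.79), a ubiquitin ligase of MCL1, Usp9x (0.77) and Ywhaz (0.70) rose. Without C 12w replicate 3 Huwe1 was at 0.45 and not called, and without replicate 2 it was at 1.12.

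Targets of p53 were followed because Bbc3, Pmaip1 and Bax are among them. Cdkn1a, the cell cycle inhibitor p21, was 39.5, 46.0 and 67.0 FPKM in C 8w, then 41.4 and 43.2 in C 12w and 109, 94.0 and 86.1 in the SALI group. It rose against C 8w (0.94, adjusted p = 0.00599) and C 12w (1.16, adjusted p = 0.0046), with no overlap between groups. Zmat3 (0.75) and Ccng1 (0.70) rose too, while Mdm2 had 0.36 (adjusted p = 0.102) against C 8w and rose against C 12w (0.68, adjusted p = 0.0187). Zmat3 (-0.79) and Ccng1 (-0.91) fell in C 12w against C 8w, and Ccng1 was at -0.54 without C 12w replicate 3, where it was not called, and at -1.28 without replicate 2. Of the 6 targets on this list 3 thus rose after SALI against C 8w and none fell, and Perp (0.69, adjusted p = 0.0605) and Sesn2 (-0.16, adjusted p = 0.596) were not called, like Mdm2. Of the members named as p53 targets at the start of this paragraph, Pmaip1 rose, Bbc3 fell and Bax was not called.

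**Figure D4:**
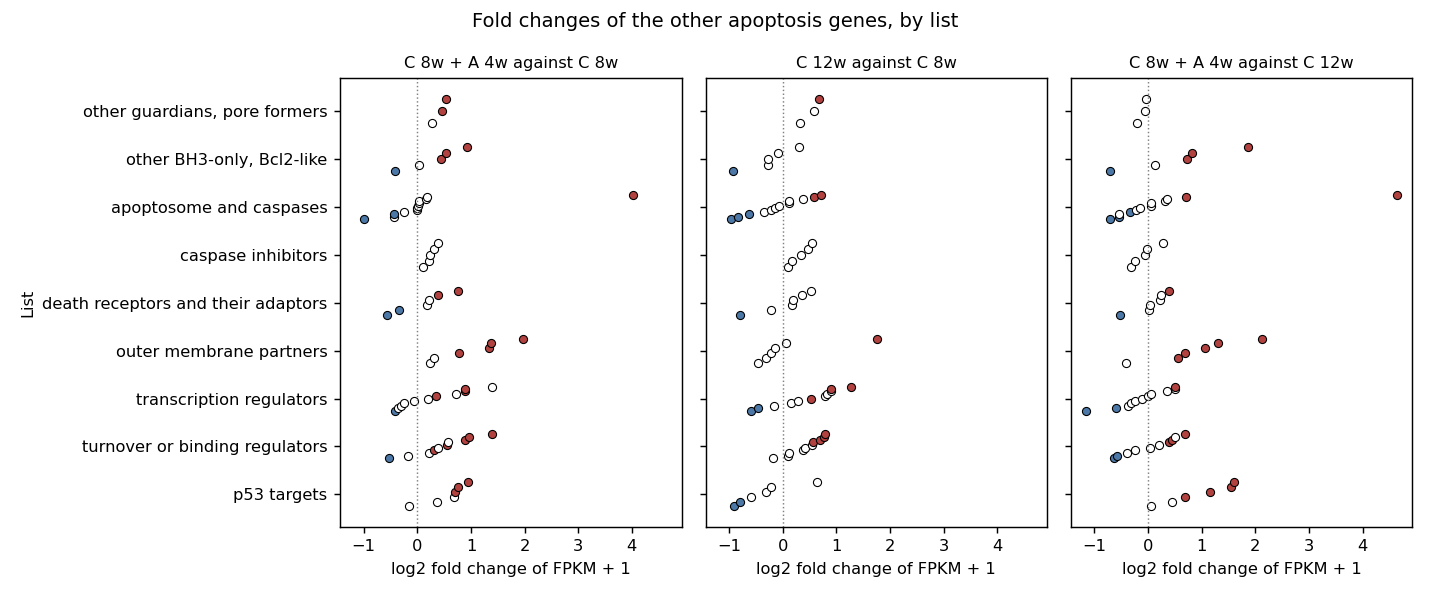
Log2 fold change of FPKM + 1 (horizontal axis) of the 64 further apoptosis genes tested, in rows by list and panels by comparison, where each point is a gene. Red points were called higher, blue lower and white not called. Cycs stands alone at 4.02 and 4.64 in the comparisons with the SALI group, and the p53 targets lie to the left of 0 in C 12w against C 8w for 5 of 6 genes.

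Other cell types moved with the groups to different degrees. Macrophage and Kupffer cell markers summed to 224 to 265 FPKM in C 8w, then 203 and 235 in C 12w and 211, 575 and 179 in the SALI group, where replicate 2 stood out. Without that replicate 5 of the 7 members called against C 8w were called, with Bcl2l11 at 1.35, Pmaip1 at 1.5, Bcl2l1 at 0.47, Bbc3 at -1.04 and Bad at -0.44. Bak1 (0.36, adjusted p = 0.052) and Bid (0.55, adjusted p = 0.0801) were not. Markers of T and NK cells summed to 2.81 to 3.43 FPKM in C 8w, then 3.91 and 1.68 in C 12w and 1.07 to 2.03 in the SALI group, which lay below C 8w without overlap. None of these 10 markers was above 1 FPKM in every sample of any group, and the depth behind such low values is unknown. The ranges of Cd3d, Cd8a, Klrb1c, Nkg7 and Gzma overlapped between C 8w and the SALI group. Cd3e, Cd3g, Cd4, Ncr1 and Il2rb were lower in the SALI group without overlap. Markers of B cells, all below 1 FPKM, summed to 0.751 to 1.86 in C 8w and 0.368 to 1.07 in the SALI group. Cholangiocyte markers were 26.3 to 32.8 FPKM in the SALI group against 9.51 to 15.2 in C 8w, endothelial markers 19.5 to 36.9 against 41.5 to 45.5, and those of stellate cells and fibroblasts 86.4 to 135 against 81.1 to 91.1. Spp1 made up most of the cholangiocyte sum, at 16.6 to 23.6 FPKM in the SALI group and 8.26 to 11.8 in C 8w. Krt7, Epcam, Sox9 and Cftr were also higher in the SALI group without overlap, and the ranges of Krt19 overlapped. Neither the endothelial list nor that of stellate cells and fibroblasts moved as one. Among endothelial markers Clec4g fell from a mean of 17.7 to 6.58 FPKM, while Lyve1 was 1.56 to 2.08 in C 8w and 2.71 to 8.61 in the SALI group, and the ranges of Pecam1 overlapped. Among stellate cell and fibroblast markers Dcn made up most of the sum, at 77.2 to 116 FPKM in the SALI group, while Col3a1 was 2.56 to 4.73 FPKM in C 8w and 0.182 to 1.72 in the SALI group, and Col1a1 was 0.749 to 1.46 and 0.0618 to 0.528. Neutrophil markers summed to 6.56 to 8.21 FPKM against 3.29 to 14.8. Hepatocyte markers summed to 12300 to 15200 FPKM in C 8w, then 9970 and 15700 in C 12w and 11600 to 13800 in the SALI group. Most single hepatocyte markers were lower under that sum after SALI. Ttr, Apoc3, Cps1, Hnf4a, Cyp2e1 and Serpinc1 were below C 8w without overlap. Only Apoa1 and Ass1 were above it without overlap, and the ranges of Fgb and Tat overlapped. Mean Ttr was 5790 FPKM in C 8w and 3460 in the SALI group, and mean Apoa1 was 3110 and 6360. Apoc3 fell (-1.75), Cps1 fell (-1.10) and Ass1, which shares 38.6% of its windows, rose (4.28). The part of these cell types in the member values was not tested.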

How the data were processed

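RNA sequencing values of 8 Fah-/- mice were used, grouped by their treatment labels into C 8w (n = 3), C 12w (n = 2) and C 8w + A 4w (the SALI group, n = 3). The authors deposited FPKM values for 22504 Ensembl mouse genes, of which 22314 had a symbol. The submitters' processing notes list Bowtie 0.12.2 and mm8 without roles, and the quantifier and strand setting are not given in the sources used here. FPKM holds no counts, so depth and counting error are unknown, and p-values measure only the spread between these samples.

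Genes with at least 1 FPKM in at least 4 samples were compared as log2(FPKM + 1), which understates changes of low genes, with limma 3.58.1 in R 4.3.3 (lmFit and eBayes with a trend, 1 fit of all samples, two-sided, Benjamini-Hochberg over 10244 genes). The same script was tested on simulated data. Members, lists and comparisons were chosen with earlier results of these data known. Named are the 10 members, up to 3 called, non-overlapping genes with the largest change per list and comparison, Trp53, Cdkn1a, Mdm2, Fah, Gapdh, Alb and the nearest genes of the 2 members with the smallest F test p. Copies, overlapping neighbours, Bcl2l12, Bcl2l14, Bik, Ddit3, Birc5, Spp1, Clec4g, Lyve1, Pecam1, Perp, Sesn2, Dynll2, Dcn, Col1a1, Col3a1, Apoc3, Cps1, Ass1 and the other single cell type markers named were added after their values were seen. Values of a few genes that the rule names were left out. Shared sequence was computed with Python 3.11.15 over 50-base windows of GENCODE M21 transcripts. That annotation is on another build than mm8, so no coordinates of measured genes are given. Promoter windows are RefSeq sequences on GRCm38.p6.

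Alternatives were a pseudocount of 0.1, other floors, median-ratio and quantile scaling, genes with at most 2% shared sequence together with median-ratio scaling, a fit of only the 2 groups compared, no trend, a minimum log2 fold change of 1, each sample left out and a replicate block. A crossed block was added after seeing the data. The minimum log2 fold change was used only for counts of genes called. It is not among the alternatives counted for single genes.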

Additional observations from a re-analysis of the deposited data

How the results depend on the processing

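The counts of alternatives for single members leave out the minimum log2 fold change of 1. Bcl2l11 and Bbc3 kept their call and direction in the SALI group against C 8w under all 16 others, and Bad under the 15 of these that tested it. Pmaip1 did so under all 16 too, but in all except those with no floor (adjusted p = 0.00603) and a floor of 0.1 FPKM (adjusted p = 0.00176) its being tested rested on the groups in which it was high. Bcl2l1, Bak1 and Bid kept their direction and lost the call under 5 of 16, 4 of 15 and 6 of 15. Under the minimum log2 fold change of 1, Bcl2l1, Bak1, Bid and Bad were not called, as their changes were smaller than that. Counts of calls moved more. Members called in the SALI group against C 8w, 7 of 9 tested, became 3 when a log2 fold change of 1 or more was asked for. With at most 2% shared sequence and median-ratio scaling together they became 4 of 5 tested, as Bax, Bak1, Bid and Bad were left out. In the SALI group against C 12w (4) they became 1 with only the 2 groups compared and 1 when a log2 fold change of 1 or more was asked for. In C 12w against C 8w (1) they became 2 under quantile scaling. Further apoptosis genes called, 30, 20 and 28 in the SALI group against C 8w, C 12w against C 8w and the SALI group against C 12w, became 12, 11 and 15 of 34 tested with the same 2 changes together and 5, 2 and 9 when a log2 fold change of 1 or more was asked for. With only the 2 groups compared, which leaves fewer samples, those of both comparisons with C 12w became 13 and 17.

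With each sample left out in turn, members called in the SALI group against C 8w ranged from 4 (without C 8w replicate 1) to 8, in C 12w against C 8w from 1 to 3 (without C 12w replicate 2), and in the SALI group against C 12w from 2 (without SALI replicate 1 or 3) to 5. Further apoptosis genes called ranged from 20 to 39, from 4 to 27 and from 19 to 28. The lowest value of 4, in C 12w against C 8w, came without C 8w replicate 1, and without C 8w replicate 2 or 3, C 12w replicate 3 or SALI replicate 3 the count was 8, 6, 10 and 13.

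Some log2 fold changes that were not called changed sign. Under quantile scaling Bcl2l11 in C 12w against C 8w was -0.09 and Bax in the SALI group against C 12w was -0.09. With samples left out, Bcl2l1 in C 12w against C 8w ranged from -0.16 to 0.01 and Bad from -0.07 to 0.04, and in the SALI group against C 12w Mcl1 ranged from -0.60 to 0.08, Bax from -0.13 to 0.14, Bid from -0.27 to 0.48 and Pmaip1 from -0.35 to 0.46. The cause of these changes was not tested.

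Replicate numbers 2 and 3 occur in both MCLI groups, for different mice. Deviations of same-numbered samples had a correlation of -0.189 over 10244 genes. With the number as a replicate block over these 4 samples, 0 members (Pmaip1 1.30, adjusted p = 0.0674) and 1 further apoptosis gene were called in C 12w against C 8w, and with the crossed pairing 0 and 0. Unknown depth limits what can be said of Bcl2 and of Pmaip1 in C 8w, both below 1 FPKM.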

Other observations

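Birc5, the gene of the mitotic caspase inhibitor survivin, met the floor in too few samples to be tested. It was 2.67 and 2.85 FPKM in the C 12w samples and between 0.231 and 0.356 in the 6 others. Bcl2l14, another low member of the Bcl2-like genes, was 1.53 and 0.225 FPKM in C 12w and at most 0.158 elsewhere. Both were chosen after their values were seen.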
